A study of Sus scrofa with 6 samples.

Results

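Day 3 was set against day 1 in single cells of the piglet ileum, with 1 10x Chromium library at each age. Barcodes with at least 1000 UMIs (unique molecular identifiers, 1 per captured transcript) and at least 500 genes were taken as cells, which gave 11494 barcodes on day 1 and 11361 on day 3, together 22855 of the 76099 barcodes in the 6 libraries of the series (days 0, 1, 3, 7, 14 and 21). Both libraries came from male piglets, 1 day old and 3 days old, with no agent, allele or diet named in the labels. Ileal mucosa was scraped and taken apart with EDTA and TrypLE. The labels give the ileum as tissue, while the design text of the series names the cecum. Per the study, several piglets were sampled at each age, and no label ties a barcode to an animal, so the spread between animals cannot be read from these libraries.

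Lineages were told apart by small sets of transcripts counted in each barcode. The B gate needed at least 2 UMIs of MS4A1, PAX5 and POU2AF1 together and no CD3E or CD3G. The T gate needed at least 2 UMIs of CD3E and CD3G and no MS4A1 or PAX5. The LYZ+CST3+AIF1 gate, meant for myeloid cells, needed at least 10 UMIs of those 3 genes. An epithelial gate (at least 5 UMIs of EPCAM, CDH1, KRT8 and KRT19) and a stromal gate (at least 10 UMIs of COL1A1, COL1A2 and COL3A1), both without B or T genes, were added to these. Levels are UMIs of a gene summed over the barcodes of a gate, per 10000 UMIs of that gate. Genes with at least 100 UMIs over both libraries were compared, and a gene was called higher or lower when its level differed by at least 2-fold. Each age has 1 library, which leaves no replicate error to test a difference against. The intervals given are exact at 95% and cover counting error only, not the spread between piglets or preparations.

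The first days after birth are a time of rapid change for this tissue. The newborn pig takes up antibody and other proteins of colostrum through vacuolated enterocytes. The pig ileum carries a long continuous Peyer's patch, a lymphoid organ of B cell follicles in which B cells divide and diversify their receptors. Naive lymphocytes enter lymphoid tissue from blood with the help of CCR7 and leave it again through S1PR1, and germinal centre B cells are held in the follicle by S1PR2. Immediate early genes such as FOS and JUN are switched on within minutes of a stimulus, tissue dissociation included.

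The libraries were close in depth. The files held 79642651 UMIs on day 1 and 80068913 on day 3, and the barcodes taken as cells had a median of 3835 and 4029 UMIs and of 1198 and 1363 genes, with a median mitochondrial share of 4.87% and 6.11%. The libraries shared 35 of these barcode sequences. RNA outside cells was read from barcodes of at most 100 UMIs, called free RNA here, and its content differed greatly between the ages. Summed levels of 12 epithelial markers there were 18.2 per 10000 on day 1 and 1.06 on day 3, while those of 15 B lineage markers were 5.86 and 25.6. Free RNA levels are therefore given beside results in gates. Whether these barcodes hold only free RNA, and its part in the results, was not tested.

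The B gate was the gate that was higher on day 3. It held 3467 of 11494 barcodes on day 1, 30.2% (29.3 to 31.0), and 7936 of 11361 on day 3, 69.9% (69.0 to 70.7). The T gate held 14.4% (1653 barcodes) and 3.07% (349). The epithelial gate held 9.0% (1034) and 0.819% (93), and the LYZ+CST3+AIF1 gate 8.14% (936) and 1.80% (205). The stromal gate held 3.13% (360) and 1.55% (176), and 36.7% and 23.2% of barcodes met no gate. The B gate held 21.0% of the day 0 library and 80.4%, 91.1% and 93.0% of the libraries of days 7, 14 and 21, so day 1 and day 3 lie on either side of the largest difference between neighbouring ages. Shares add up over lineages, so that more B cells and fewer other cells cannot be told apart. No interval of day 1 overlapped that of day 3 in any gate, but these intervals cover counting error only, not the spread between piglets. Thinned to 1000 UMIs per barcode and gated again, shares differed by 20.8 percentage points in the B gate and -0.24 in the stromal gate.

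**Figure D1:**
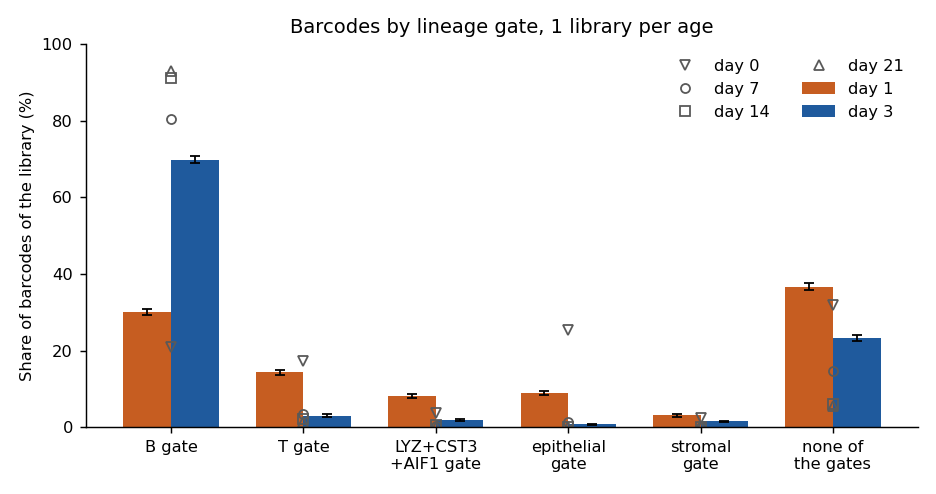
Share of the barcodes of a library (%, y axis) in each gate (x axis). Bars are day 1 and day 3 with exact 95% intervals, and open symbols are the other 4 libraries. The B gate held 30.2% on day 1 and 69.9% on day 3, and each other gate was lower on day 3.

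Over all barcodes, transcripts of B cells and of dividing cells were higher on day 3 and transcripts of absorptive enterocytes lower. Of 13438 genes compared, 1323 (9.85%) were at least 2-fold higher and 3073 (22.9%) at least 2-fold lower. The higher genes named by rule were KLHL6, PCLAF, HMCES, CR1, HELLS, ELL3, DUT, EAF2, DCK, BIRC5, CD55, TOP2A, TPX2, HSPA6 and VPREB3. KLHL6, which takes part in B cell receptor signalling and germinal centre formation, stood at 0.155 per 10000 (0.146 to 0.164) on day 1 and 1.14 (1.11 to 1.17) on day 3, a 7.37-fold difference. PCLAF, a PCNA partner in DNA replication, stood at 0.520 and 3.57. DUT, which removes dUTP during DNA synthesis, stood at 2.59 and 11.5, and VPREB3, a protein of the B lineage, at 1.48 and 5.60. Genes of replication and genes of B cells thus stand side by side in this list. On day 3 the B gate held 93.0% of the UMIs of ELL3 and 70.1% of those of HSPA6, the ends of the range over these 15 genes. Over all genes it held 75.9% of the UMIs of that day, so HSPA6 lay below this share.

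The lower genes named by rule included MELTF, PRAP1, APOC2, RBP2, APOA4, MEP1B, FABP2, APOB, PDZK1, REG3G, S100G, TGM3, AOC1 and SMPDL3B. APOC2, an apolipoprotein of chylomicrons (chromosome 6, 51404219 to 51406302, protein coding, RefSeq positions on Sscrofa11.1), had 75510 UMIs on day 1 and 35 on day 3, or 10.9 and 0.00537 per 10000. RBP2, the retinol carrier of enterocytes, stood at 11.6 and 0.00676. REG3G, an antibacterial lectin, stood at 9.97 and 0.0267, 373-fold lower on day 3. Most of the day 1 UMIs of these genes lay in the epithelial gate, as the 86.9% of APOC2 did, while TGM3 had 51.8% in the LYZ+CST3+AIF1 gate. Gates may share barcodes, and 87 barcodes of day 1 met both the epithelial and the LYZ+CST3+AIF1 gate. The same genes stood at 16.6 (APOC2) and 17.6 (RBP2) per 10000 in the free RNA of day 1.

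Within the B gate, most cell cycle genes and 10 of 20 germinal centre genes were at least 2-fold higher on day 3, and the receptors CCR7 and GPR183 were lower. Of 10910 genes compared, 954 (8.74%) were at least 2-fold higher and 1039 (9.52%) at least 2-fold lower. The median over all genes was 0.24 on the log2 scale, and values of lists below are read against it. With TMM scaling, which centres that median near 0, the counts were 534 and 1272, and with equal weight per barcode 1362 and 726, so the balance of higher and lower genes turns with the scaling. Of the 1039 lower genes, 947 (91.1%) had a day 1 level in the B gate below that of the free RNA of day 1, and of the 954 higher genes 203 (21.3%) were below the free RNA of day 3. Only 35 of the lower genes and 134 of the higher genes stood at 2 times the free RNA or more. Of the 1323 genes higher over all barcodes, 665 (50.3%) were also at least 2-fold higher within the B gate, and they made up 69.7% of its 954 genes.

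Cell cycle genes were higher on both lists. Of 43 G1/S genes 26 were at least 2-fold higher and none lower (median log2 1.14), and of 54 G2/M genes 40 were higher and none lower (median 1.40). Together the 97 genes made up 45.5 UMIs per 10000 (45.2 to 45.8) on day 1 and 89.9 (89.6 to 90.1) on day 3. The day 0 library stood at 40.9, and those of days 7, 14 and 21 at 98.8, 172 and 128. PCLAF stood at 0.979 and 4.22, with 0.366 and 2.13 in the free RNA. TOP2A, the topoisomerase that untangles replicated DNA, stood at 0.881 and 2.39. MKI67, the classical marker of cycling cells, stood at 0.231 and 0.792, and CENPE, a kinetochore motor, at 0.543 and 1.67. Each of these 4 was also higher in the free RNA of day 3.

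A larger share of barcodes carried division genes. A UMI of MKI67, TOP2A, CENPF or BIRC5 was found in 11.7% of B gate barcodes on day 1 (10.6 to 12.8) and in 35.7% on day 3 (34.6 to 36.7). Their median depths were 3792 and 4274.5 UMIs, and after thinning each barcode to 1000 UMIs the shares were 6.37% and 18.7%. These genes together stood at 2.29 and 6.61 per 10000 in the B gate and at 1.21 and 3.76 in the free RNA, and no gate is known to lack them. In the thinned B gate they stood at 1.34 and 4.12, close to the free RNA of each day, and its part in these shares was not tested. The median barcode spent 0.273% of its UMIs on the 97 cell cycle genes on day 1 and 0.359% on day 3. The 90th percentile was 0.555% and 1.62%. The upper tail thus differed far more than the middle.

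**Figure D2:**
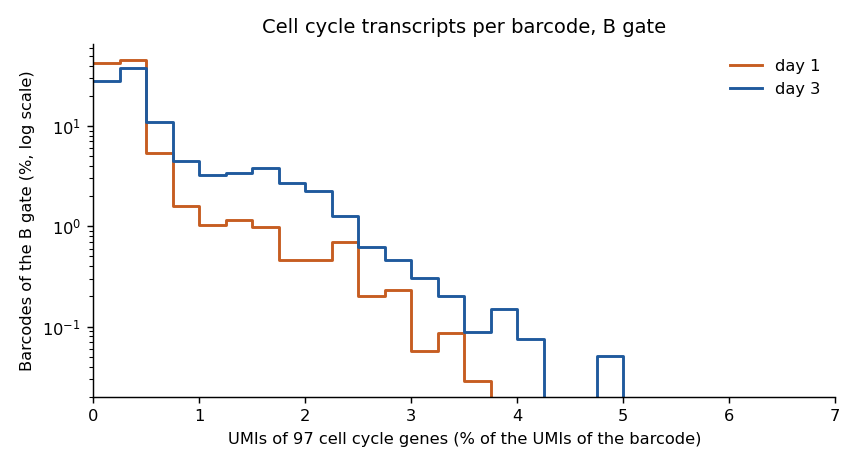
Distribution over B gate barcodes of the share of UMIs from the 97 cell cycle genes (%, x axis, bins of 0.25), with the share of barcodes on a log scale (%, y axis), on day 1 and day 3. The medians were 0.273% and 0.359% and the 90th percentiles 0.555% and 1.62%, so the libraries part mainly above 0.5%.

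Of 20 germinal centre and antibody diversification genes compared, 10 were at least 2-fold higher and 2 lower (median log2 1.04). Their summed level was nearly equal, 12.1 and 12.6 per 10000, with CD83, a lower member, at 6.86 and 1.74 of it. MEF2B, a transcription factor upstream of BCL6, stood at 0.145 per 10000 on day 1 and 0.566 on day 3, and MYBL1, a MYB family factor of germinal centre B cells, at 0.0869 and 0.728. RGS13, a brake on chemokine receptor signalling, stood at 0.0251 and 0.126, and S1PR2, the receptor that holds B cells in the follicle centre, at 0.167 and 0.400. UNG, which removes uracil from DNA, stood at 0.223 and 0.627 and MSH6, a mismatch repair protein, at 0.364 and 1.12, and both also serve replication. BCL6, the master repressor of the germinal centre, stood at 0.541 and 0.955, below 2-fold. The members lower by 2-fold were CD83, an activation marker, and EFNB1. In the free RNA MYBL1 stood at 0.0511 and 0.555, below the B gate of the same library.

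MYBL1 and RGS13 were also higher in barcodes without a detected division gene. In B gate barcodes without a UMI of MKI67, TOP2A, CENPF or BIRC5 (3062 on day 1 and 5106 on day 3), MYBL1 stood at 0.0322 and 0.241 per 10000 (log2 2.90 against 3.07 in the whole gate) and RGS13 at 0.00879 and 0.0418 (2.25 against 2.33). The MYBL1 levels of these barcodes lay below the free RNA levels given above on both days, and the part of free RNA was not tested. In those barcodes 6 of 20 germinal centre genes were at least 2-fold higher and 2 lower. Of the cell cycle genes, 14 of 42 G1/S and 11 of 32 G2/M genes were at least 2-fold higher and none lower (median log2 0.77 and 0.55). No share over all genes of these barcodes is given here to set such counts against, so they are not read as a result about these lists. Of all 954 higher genes of the B gate, 491 (51.5%) were called there too, as were 702 (67.6%) of the 1039 lower genes. They made up 62.8% of the 782 higher and 94.4% of the 744 lower genes of that subset.

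Of 12 genes of naive and recirculating lymphocytes 3 were at least 2-fold lower and none higher (median log2 -0.36), and in barcodes without the 4 division genes the median was 0.0512. CCR7, the receptor for the lymphoid chemokines CCL19 and CCL21 (chromosome 12, 21857286 to 21869211, protein coding), stood at 4.07 per 10000 (3.97 to 4.17) on day 1 and 0.628 (0.606 to 0.650) on day 3, 6.48-fold lower. GPR183, the oxysterol receptor that draws B cells to the follicle edge, stood at 3.02 and 0.745. CXCR4, the receptor for CXCL12, stood at 0.534 and 0.167. The other 9 of 12 genes of the naive and recirculating list were within 2-fold, among them S1PR1 at 0.306 and 0.269 and KLF2, a factor of quiescence, at 4.23 and 3.02. CXCR5, the follicle homing receptor, stood at 0.647 and 0.688. CCR7 stood at 1.00 and 0.457 in the free RNA and GPR183 at 0.872 and 0.576, both below the B gate on each day.

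Other lower genes of the rule included CD83, NR4A2 and MYC, and of 20 immediate early genes 9 were at least 2-fold lower and none higher (median log2 -0.74). CD83 stood at 6.86 and 1.74, NR4A2, an orphan nuclear receptor induced by antigen, at 3.47 and 0.935, and MYC at 2.37 and 0.872. IL10 stood at 1.35 and 0.581, and the survival gene BCL2A1 at 4.79 and 1.54. CREM, PDE4B, PHACTR1, PIM3, ZFP36L2, BCL2L11, CREBRF and RBM3 complete the lower genes named by rule, with log2 ratios from -2.13 to -1.05. In barcodes without the 4 division genes CCR7 stood at 4.45 and 0.908, CD83 at 7.35 and 2.18 and MYC at 2.32 and 0.858, each still more than 2-fold lower. The list of 27 ribosome biogenesis genes and MYC targets, which includes MYC itself, had a median log2 of 0.06. None of them was at least 2-fold higher, and the 1 lower was MYC.

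Few antigen receptor and presentation genes differed by 2-fold or more. Over all genes of the gate 8.74% were higher and 9.52% lower by 2-fold, and the median log2 was 0.24. Of 16 B cell receptor signalling genes 1 was at least 2-fold higher and none lower (median log2 0.46). SYK, the kinase next to the receptor, stood at 0.334 and 0.635 and BLNK, the adaptor between SYK and PLCG2, at 1.12 and 1.61. Of 13 MHC class II presentation genes none was higher and 1, the protease LGMN, was lower (median -0.42). SLA-DQB1 stood at 19.6 (19.4 to 19.8) and 10.6 (10.5 to 10.7), SLA-DQA1 at 20.5 and 11.7 and SLA-DRA at 20.3 and 12, all under 2-fold. The invariant chain CD74 stood at 41.9 and 43.8 and the class II activator CIITA at 0.312 and 0.545. LGMN, which stood at 1.07 and 0.128, was at 3.8 and 0.135 in the free RNA.

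The remaining higher genes of the rule included SMC2, a condensin subunit, TPX2, a spindle factor, CD55, a complement regulator, and below 2-fold ZCCHC7, RALGPS2, BLNK, ARPC5L, SP110 and EPS15. Only 12 genes met the rule, which asks for a level 2 times that of the free RNA. CD55 stood at 1.13 and 2.39 per 10000. LTA, a cytokine that shapes lymphoid stroma, stood at 0.139 and 0.434, while LTB stood at 12.1 and 14.6. HSPA6, a strictly inducible chaperone, stood at 0.135 (0.118 to 0.153) and 1.43 (1.40 to 1.46), 10.6-fold higher, with HSPH1 at 1.67 and 3.40 and HSPB1 at 1.57 and 3.46. These were the 3 of 16 heat shock chaperones at 2-fold or more, and the abundant HSP90AB1 stood at 22.8 and 22.5. HSPA6 was at 0.340 and 2.0 in the free RNA, above the B gate on both days.

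Markers of epithelial cells, monocytes, macrophages and neutrophils summed lower in the B gate on day 3, as in the free RNA. The sum of T cell markers was higher. The 12 epithelial markers summed to 4.22 per 10000 in the B gate on day 1 and 0.267 on day 3, none of them at 0 UMIs on either day. The 13 T cell markers summed to 0.555 and 1.00, with CD3E and CD3G at 0 by the rule of the gate. Their free RNA sum, which includes CD3E and CD3G, was 1.61 and 1.70, and their sum over all barcodes 2.68 and 1.94. Only 5 of the T cell markers were compared in the B gate, 2 of them at least 2-fold higher and none lower. The source of these UMIs was not tested. APOC2 stood at 2.22 and 0.00182 in the B gate, against 16.6 and 0.0208 in the free RNA. Lipid absorption genes were lower in 11 of 12 cases (median log2 -7.20), macrophage genes in 11 of 13 and inflammatory mediators in 12 of 16. Single barcodes could also carry a gene. Of the 1466 UMIs of HBB, a globin, on day 1, 1369 came from 1 barcode.

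**Figure D3:**
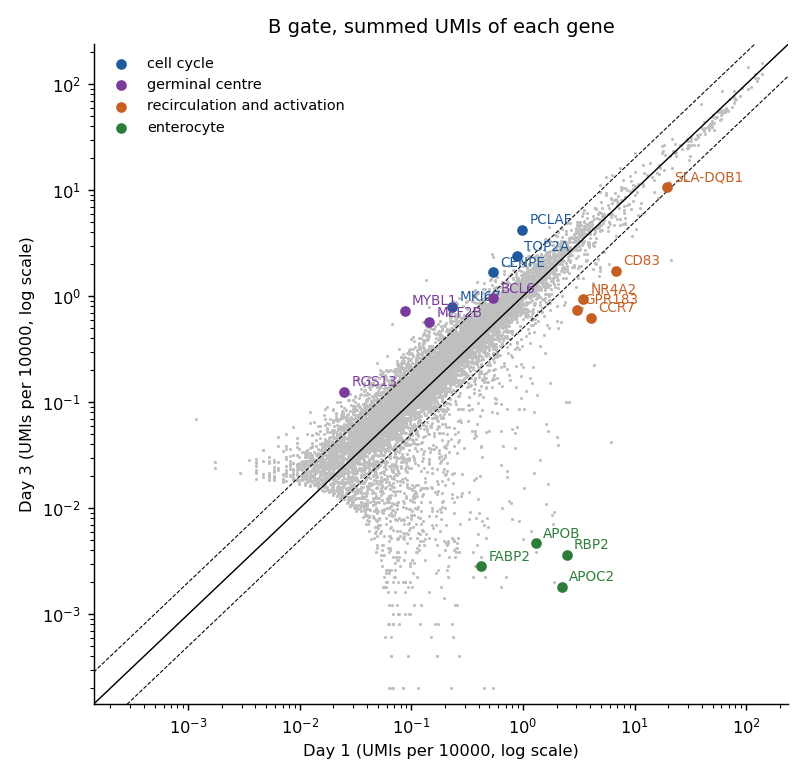
Each compared gene of the B gate with a UMI in both libraries, by its level on day 1 (x axis) and day 3 (y axis), in UMIs per 10000 on log scales. The solid line marks equal levels and the dashed lines 2-fold. The marked cell cycle genes (PCLAF, TOP2A, CENPE and MKI67) lie above the diagonal. So do the genes marked as germinal centre (MYBL1, MEF2B, RGS13 and BCL6), with BCL6 inside the 2-fold line. CCR7, GPR183, CD83 and NR4A2 lie below the lower line, and enterocyte genes such as APOC2 (2.22 and 0.00182) far below it. CD83 and EFNB1, which is not marked, are members of the germinal centre list that were lower by 2-fold.

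T cells were few on day 3, with 349 barcodes and 1906718 UMIs against 1653 and 8542300. Cell cycle genes were higher, immediate early genes were lower, and homing and cytotoxic genes went both ways. Of 7235 genes compared, 724 (10%) were at least 2-fold higher and 600 (8.29%) at least 2-fold lower, with a median log2 of 0.26 over all genes. With TMM scaling the counts were 347 and 760, and with equal weight per barcode 1062 and 522. Of the 600 lower genes 429 (71.5%) lay below the free RNA of day 1 and 70 stood at 2 times the free RNA or more, while of the 724 higher genes 255 did so against the free RNA of day 3.

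Homing and retention genes differed in both directions. Their sum stood at 15.4 and 9.71 per 10000, with RGS1, a lower member, at 8.93 and 2.32 of it. ITGAE, the integrin chain that binds epithelial E-cadherin, stood at 0.523 per 10000 (0.476 to 0.574) on day 1 and 1.67 (1.49 to 1.87) on day 3. ITGA4, which pairs with ITGB7 for gut homing, stood at 0.594 and 2.02, and ITGA1, a collagen receptor, at 0.136 and 0.383. CCR9, the receptor for the gut chemokine CCL25, stood at 0.251 and 0.545, and ITGB7 at 0.550 and 1.02, just under 2-fold. CD69, an early activation antigen that also holds cells in tissue, went the other way at 2.75 and 0.582, as did CXCR3 at 0.296 and 0.0682 and the early response gene RGS1 at 8.93 and 2.32. Of the 9 homing and retention genes compared, 4 were at least 2-fold higher and 3 lower. In the free RNA ITGAE stood at 0.134 and 0.187 and ITGA4 at 0.211 and 0.509.

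Among 13 cytotoxic effector genes 2 were at least 2-fold higher and 5 lower. Their sum stood at 42.4 and 52.7, with CCL5, a chemokine of effector T cells, at 19.9 (19.6 to 20.2) and 40.3 (39.4 to 41.2) of it. CD8A stood at 0.197 and 0.577. GNLY, a membrane-lysing granule protein (chromosome 3, 59067327 to 59072034, protein coding), had 4203 UMIs on day 1 and 0 on day 3, at least 313-fold lower when the absent gene is set to 3 UMIs. Those UMIs lay in 49 of 1653 barcodes, 32.4% of them in 5, and the day 1 UMIs of GZMB in 82 barcodes, 29.1% of them in 5. GZMB stood at 2.06 and 0.0210, GZMH at 2.36 and 0.472 and GZMA at 0.191 and 0.0210. IFNG had 136 UMIs on day 1 and 0 on day 3, at least 10.1-fold lower. NKG7, PRF1 and KLRK1 differed by less, NKG7 standing at 2.34 and 2.23. The 5 lower members were GNLY, these 3 granzymes and IFNG. FCGR3A, an Fc receptor of NK cells, stood at 6.98 and 0.760.

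Transcription factors of T cells were among the higher genes of the rule. LEF1, a factor of young T cells, stood at 0.584 and 1.66, IKZF2 at 0.883 and 2.60 and IKZF3 at 0.796 and 2.2. DCP2, STK38, OGT, CHD3 and NIN were the others, with log2 ratios from 1.46 to 1.76. LEF1 was at 0.0489 and 0.0519 in the free RNA, well below the gate. Cell cycle genes stood at 30.1 (29.8 to 30.5) and 65.2 (64.1 to 66.4) per 10000 together, with 18 of 33 G1/S and 24 of 33 G2/M genes at least 2-fold higher and none lower. MKI67 stood at 0.0761 and 0.813 and PCLAF at 0.455 and 2.80. A UMI of the 4 division genes was found in 7.62% (6.39 to 9.01) and 29.8% (25 to 34.9) of T gate barcodes, at median depths of 4192 and 4499 UMIs, and in 2.36% and 13.8% after thinning to 1000 UMIs. Summed, these 4 genes stood at 0.829 and 5.01 per 10000 in the T gate, against 1.21 and 3.76 in the free RNA, and at 0.405 and 2.81 in the thinned T gate, below the free RNA on both days. The part of free RNA in these shares was not tested.

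TNFAIP3, NR4A2, CREM and GPR183 were lower genes of the rule. TNFAIP3, a brake on NF-kappaB, stood at 4.05 and 0.530, NR4A2 at 3.73 and 0.593, CREM at 2.93 and 0.608 and GPR183 at 2.38 and 0.488. Of 20 immediate early genes 14 were at least 2-fold lower and none higher (median log2 -1.46), with JUN at 16.9 and 5.32, FOS at 5.23 and 1.41 and KLF6 at 3.01 and 0.729. JUN was higher in the free RNA of day 3, at 9.31 and 16.3, opposite to the T gate. The gate also held mixed barcodes on day 1. The gut hormone CCK had 2413 UMIs there, 2402 of them in 1 barcode, and the 5 highest barcodes held 98.9% of the 4977 UMIs of NTS, another gut hormone.

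The LYZ+CST3+AIF1 gate held fewer monocyte, macrophage and neutrophil genes and more dendritic cell genes on day 3, and it is called here by its genes because barcodes of the B and stromal gates were part of it on both days. Markers of monocytes and macrophages summed to 49.3 per 10000 on day 1 and 4.02 on day 3, those of neutrophils to 53.3 and 2.94, and those of dendritic cells to 5.11 and 11.7. No monocyte and macrophage marker was at 0 UMIs in either library. The 3 cuts below were chosen after values were seen. At least 3 UMIs of C1QA, C1QB and C1QC were found in 18.3% (15.8 to 20.9) and 4.88% (2.36 to 8.79) of barcodes. At least 3 UMIs of S100A8, S100A9 and S100A12 were found in 37.8% (34.7 to 41.0) and 5.37% (2.71 to 9.40). A UMI of FLT3, XCR1, CLEC9A or BATF3, genes of dendritic cells, was found in 54.3% (51.0 to 57.5) and 72.2% (65.5 to 78.2), against 8.29% and 6.59% of T gate barcodes. After thinning to 1000 UMIs these shares were 15.9% and 1.46%, 34.0% and 4.39%, and 22.7% and 34.1%. The gate's median depth was 8027.5 and 8876 UMIs.

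Of 8939 genes compared, 841 (9.41%) were at least 2-fold higher and 1456 (16.3%) at least 2-fold lower, with a median log2 of 0.11 over all genes, and with equal weight per barcode 1145 and 1184. Macrophage genes were lower in 15 of 20 cases and higher in none (median log2 -2.79). C1QA, the first chain of complement C1q (chromosome 6, 80586259 to 80589213, protein coding), stood at 15.4 per 10000 (15.2 to 15.7) and 0.317 (0.244 to 0.405). The scavenger receptor CD163 stood at 0.836 and 0.0496, while the mannose receptor MRC1 stood at 0.271 and 0.347. Monocyte genes were lower in 9 of 13 cases and higher in 2. CD14, the endotoxin coreceptor, stood at 4.16 and 0.243, FCN1 at 5.13 and 0.0793 and S100A9 at 26.6 and 1.20. The 2 higher ones were PLAC8 at 2.60 and 6.6 and the fractalkine receptor CX3CR1 at 0.0539 and 0.387. C1QA stood at 1.53 and 0.0623 in the free RNA and S100A9 at 5.24 and 0.114, below the gate in each library.

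Inflammatory genes were lower with them. Of 16 inflammatory mediators 13 were at least 2-fold lower and none higher (median log2 -2.64). IL1B stood at 9.87 (9.69 to 10.1) and 0.694 (0.584 to 0.819), SOD2, an induced superoxide dismutase, at 12.5 and 2.01, and the neutrophil chemokine CXCL8 at 3.35 and 0.183. ARG1, an enzyme of arginine breakdown, stood at 8.07 and 0.178. CXCL10, an interferon-induced chemokine, stood at 12.3 and 0.461, and CXCL9 had 3097 UMIs on day 1 and 0 on day 3, at least 190.2-fold lower. Interferon-stimulated genes were lower in 19 of 27 cases, the most of the 5 gates, and their free RNA sum was 24.2 and 12.8 per 10000.

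Dendritic cell genes were higher, and presentation genes were higher in the gate as a whole. Of 13 MHC class II presentation genes 5 were at least 2-fold higher and 1 lower (median log2 0.65), against 0 and 1 in the B gate. Without barcodes that carry B, T, epithelial or stromal genes, an alternative added after values were seen, that median was -0.04. CD74 stood at 52.2 and 106 per 10000, SLA-DRB1 at 13.4 and 26.0, SLA-DOA at 0.269 and 0.763 and CIITA at 0.190 and 0.620. XCR1, a chemokine receptor of cross-presenting dendritic cells, stood at 0.113 and 0.912 and the growth factor receptor FLT3 at 0.243 and 0.981. WDFY4, needed for cross-presentation, stood at 0.323 and 1.5, and C4H1orf54 at 0.379 and 2.63. APLF and ITGA4 were also among the higher genes of the rule. XCR1 was at 0.0149 and 0.0104 in the free RNA, far below the gate.

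Other lineages were part of the gate. B gate barcodes numbered 53 of its 936 on day 1 and 25 of its 205 on day 3, epithelial ones 87 and 0 and stromal ones 7 and 9. CXCL13, the chemokine that draws B cells into follicles, stood at 3.50 and 25.6, but 21 barcodes held its 5165 UMIs on day 3 and 5 of them 69.4%. MFGE8, MGP, CLU and MYH11, genes of stroma and smooth muscle, were as narrow, with 60.7% to 67.6% of day 3 UMIs in 5 barcodes. JCHAIN, of antibody-secreting cells, had 70.7% there. In the same alternative the log2 ratio of CXCL13 was -0.67 (-4.45 when thinned) against 2.87 and that of MFGE8 -0.33 against 3.06. The lower genes OLFM4, SPINK1 and SPAI-2, of crypt and other epithelium, and CFI had 63.9%, 58.7%, 93.0% and 49.5% of their day 1 UMIs in 5 barcodes. TGM3 stood at 11.9 and 0.169 and CCL8 at 1.24 and 0.0149.

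Few epithelial barcodes were left on day 3, 93 against 1034, and their median depth was 5997 against 15180 UMIs. Genes of lipid absorption and digestion were lower among them. Enteroendocrine and crypt genes were mostly higher, and goblet cell genes were higher in 4 of 10 cases. Of 9720 genes compared, 1060 (10.9%) were at least 2-fold higher and 1828 (18.8%) at least 2-fold lower. For 1586 of the 1828 lower genes the counting interval of the ratio lay below 1, since many had few UMIs on day 3. At least 3 UMIs of FABP2, APOA4, APOC2 and RBP2 were found in 72.1% (69.3 to 74.9) of barcodes on day 1 and in 0 of 93 on day 3, which allows a share of up to 3.23% when 3 counts are taken as the limit of a count of 0. Thinned to 1000 UMIs, the share on day 1 was 53.8%. The T gate had 4.17% and 0 by the same cut, which like those that follow was chosen after values were seen. At least 5 UMIs of FABP6, the ileal bile acid carrier, were found in 20.3% (17.9 to 22.9) and 10.8% (5.28 to 18.9) of epithelial barcodes, and in 8.22% and 4.30% after thinning.

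Genes of absorption were lower list by list. The share of barcodes past the cut of FABP2, APOA4, APOC2 and RBP2 above differed too, and its part in these lists was not tested. All 11 compared genes of lipid absorption were at least 2-fold lower (median log2 -6.89), as were 10 of 12 of brush border digestion (median -4.11). APOA1, the main protein of high density lipoprotein, stood at 68.0 and 3.40 per 10000, APOB, the scaffold of chylomicrons, at 13 and 0.109, and RBP2 at 35.3 and 0.0684. APOC2 had 65617 UMIs on day 1 and 3 on day 3 (log2 -9.71, -11.99 to -8.17). The peptidases ANPEP and ENPEP stood at 10.1 and 0.492 and at 4.84 and 0.314, though ENPEP was level when thinned to 1000 UMIs (log2 0.0369), and MEP1B had 14789 UMIs on day 1 and 0 on day 3, at least 189-fold lower. Sucrase-isomaltase, SI, stood at 0.0551 and 0.0410 and maltase-glucoamylase, MGAM, at 0.0976 and 0.0957. Lactase, LCT, had 89 and 2 UMIs, below the floor of 100. FABP6 stood at 27.6 and 4.43 and its regulator NR1H4 at 1.27 and 0.0957.

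Genes of protein uptake by the newborn enterocyte were lower too, in 7 of 9 cases (median log2 -3.47). LGMN, a lysosomal protease, stood at 12.4 and 0.164, DAB2, a clathrin adaptor, at 10.1 and 0.561, and AMN, which anchors the uptake receptor cubilin, at 2.91 and 0.123. FCGRT, the Fc receptor that carries antibody across cells, stood at 5.74 and 3.19, under 2-fold. CCL20, which draws CCR6-bearing lymphocytes, stood at 13.3 (13.1 to 13.4) and 0.684 (0.507 to 0.901). APOE, APOC3, MELTF, CREB3L3, AOC1, APOA4 and FABP2 were the other lower genes of the rule, with 7 UMIs or fewer each on day 3. In the free RNA LGMN stood at 3.8 and 0.135, DAB2 at 4.56 and 0.239 and CCL20 at 5.71 and 0.0467, in the same direction as the gate.

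Some goblet cell and crypt genes were higher. Of 10 goblet cell genes 4 were at least 2-fold higher and 1, the membrane mucin MUC13, lower (median log2 0.88). AGR2, the mucin folding disulfide isomerase, stood at 7.90 per 10000 (7.78 to 8.03) and 70.3 (68.4 to 72.3), the secreted mucin MUC2 at 4.91 and 10.2 and ATOH1, the secretory lineage factor, at 0.0713 and 0.697, while TFF3 stood at 60.1 and 74.0. Of 7 crypt and stem cell genes 5 were higher and none lower. SMOC2 stood at 0.146 and 1.55, ASCL2 at 0.112 and 0.574 and SOX9 at 0.156 and 1.01, and OLFM4 at 9.03 and 7.70. At least 5 UMIs of AGR2, FCGBP and CLCA1 were found in 15.8% (13.6 to 18.1) and 29.0% (20.1 to 39.4) of barcodes, and in 10.3% and 18.3% after thinning. FCN2, a ficolin, stood at 11.9 and 161 and RETNLB, a goblet cell product, at 2.51 and 39.4. These goblet values rest on few deep barcodes, since 5 barcodes held 57.3% of the AGR2 UMIs of day 3. With every barcode thinned to 1000 UMIs and the gate applied again, 30 barcodes of day 3 were left and the goblet median was -2.70, with AGR2 still higher (log2 1.12) and MUC2 lower (-3.48). PLA2G2A, an antibacterial phospholipase, had 494 UMIs in 8 barcodes on day 3. KCTD12, IGFBP2 and SPAI-2 also met the rule.

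Enteroendocrine genes had the highest list median, 2.96, with 11 of 14 at least 2-fold higher and 3 lower. CHGA, a granin of hormone granules, stood at 3.23 (3.15 to 3.32) and 25.3 (24.1 to 26.5). INSM1 and NEUROD1, factors of the lineage, stood at 0.166 and 1.63 and at 0.204 and 1.63, and TPH1, which makes serotonin, at 0.297 and 2.49. Somatostatin, SST, stood at 5.88 and 48.5, but all 3549 UMIs of day 3 came from 4 barcodes, and with barcodes thinned to 1000 UMIs it was lower on day 3 (log2 -2.64 against 3.05). All 295 UMIs of GCG came from 1 barcode, which had a mitochondrial share of 25% or more, and without such barcodes GCG had 0 UMIs on day 3, a log2 ratio of -5.36 at the floor of 3 UMIs against 1.01. The lower members were 3 gut hormones, NTS at 12.1 and 0.137, PYY at 7.80 and 1.65 and CCK at 1.19 and 0.219. At least 3 UMIs of CHGA and CHGB were found in 10.1% (8.29 to 12.1) and 29.0% (20.1 to 39.4) of barcodes, and in 8.51% and 26.9% after thinning, against 0.121% and 0.287% of T gate barcodes. These are shares of a gate that was itself smaller by far on day 3, 27 barcodes against 104.

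In the stromal gate, with 360 and 176 barcodes, immediate early genes were lower as a whole, and 4 of 9 genes of follicular stroma were higher. Of 4853 genes compared, 192 (3.96%) were at least 2-fold higher and 294 (6.06%) at least 2-fold lower, and with TMM scaling 137 and 334. All 17 immediate early genes compared were at least 2-fold lower (median log2 -3.01). FOS, a partner of JUN in the AP-1 factor (chromosome 7, 98449508 to 98451971, protein coding), stood at 13.3 per 10000 (12.8 to 13.8) on day 1 and 0.837 (0.671 to 1.03) on day 3, 15.9-fold lower. JUNB stood at 17.3 and 1.30, EGR1 at 11.6 and 0.932 and ATF3, a stress factor, at 4.28 and 0.171. OTUD1, GADD45B, SOCS3, IER3, JUN, CXCL2 and SLC2A3 were the other lower genes of the rule. EGR1 stood at 4.07 and 5.41 in the free RNA, higher on day 3, and FOS at 4.62 and 2.19.

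Of 19 extracellular matrix genes 2 were at least 2-fold higher and 1 lower (median log2 0.35). FN1, fibronectin, stood at 4.85 and 11.5, COL5A1 at 0.775 and 1.76 and the proteoglycan DCN at 28.5 and 11.5. Smooth muscle markers summed to 32.7 and 59.0 per 10000 and fibroblast markers to 152 and 149.9. At least 5 UMIs of ACTA2, MYH11 and TAGLN, genes of contractile cells, were found in 32.8% and 52.3% of barcodes, and in 15.6% and 26.7% after thinning. MYH11 stood at 3.11 and 7.19 but was lower when thinned and gated again (log2 -0.59 against 1.21). At least 2 UMIs of DCN and LUM, genes of fibroblasts, were found in 80.3% and 62.5%, and in 61.4% and 39.8% after thinning. A UMI of PDGFRA, another fibroblast gene, was found in 65.3% and 62.5%, and in 31.7% and 38.1% after thinning. By the contractile cut and the DCN and LUM cut, the makeup of the gate thus differed between the days. Its part in the stromal results was not tested. Endothelial markers summed to 2.27 and 0.399.

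Genes of follicular stroma and dome were higher in 4 of 9 cases and lower in 1 (median log2 0.90), while of 8 chemokine ligands 3 were higher and 4 lower. CXCL13 (chromosome 8, 73071261 to 73077342, protein coding) stood at 7.81 (7.43 to 8.20) and 56.2 (54.7 to 57.6), with 30 barcodes holding the 5908 UMIs of day 3 and 5 of them 60.7%. At least 3 UMIs were found in 10.3% (7.34 to 13.9) and 13.1% (8.47 to 19.0) of barcodes, and in 5.56% and 11.4% after thinning to 1000 UMIs. TNFSF11 (RANKL), which sets up the dome epithelium over follicles, stood at 0.224 and 1.10, with its 116 UMIs of day 3 in 18 barcodes and 56.0% of them in 5. TNFSF13B (BAFF), a survival factor of B cells, stood at 0.195 and 0.799, and CXCL12 at 1.49 and 3.53. FCAMR, an Fc receptor for IgA and IgM, stood at 0.180 and 1.67, with 83.0% of day 3 UMIs in 5 barcodes. CCL19, the ligand of CCR7, stood at 15.1 and 10.4. The monocyte chemokine CCL2 was lower, at 18.6 and 4.47, as was the adhesion molecule ICAM1 at 1.80 and 0.627. SFRP2, C3H2orf40, MFGE8, CALCB, SOD3, RAMP1 and CHI3L1 complete the higher genes of the rule, with log2 ratios from 1.98 to 3.69, and 5 barcodes held 62.3% of the day 3 UMIs of C3H2orf40 and 51.1% of those of SFRP2.

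Across lineages, 3908 genes were compared in all 5 gates, of which 63 were at least 2-fold lower in each and 12 higher in each. Among the 12 were PCLAF, TK1, KIF11, CENPE, TOPBP1, MSH6 and DUT, all of replication or mitosis, and CD55. Each of these 8 was also higher in the free RNA of day 3, DUT at 1.82 and 9.66 per 10000 and TOPBP1 at 0.211 and 0.483. LUC7L3, CDCA7L and HAUS6 were among the 12 as well. LUC7L3 had log2 ratios from 1.15 in the stromal gate to 1.28 in the B gate, and stood at 0.845 and 2.08 in the free RNA. Of the 63, many were enterocyte genes of the day 1 free RNA, such as APOB, RBP2 and FABP6. IRF1, an interferon response factor, was lower in each, with log2 ratios from -3.46 in the stromal gate to -1.65 in the LYZ+CST3+AIF1 gate, and it was also lower in the free RNA, at 2.06 and 0.763 per 10000. NFKBIA, the inhibitor of NF-kappaB, ranged from -2.46 in the T gate to -1.24 in the B gate, although the free RNA held 3.74 and 5.53 per 10000. ISG15, CEBPD and KLF10 were lower in each gate as in the free RNA.

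Immediate early genes stood out by gate. They were at least 2-fold lower in 17 of 17 cases in the stromal gate, 14 of 20 in the T gate, 9 of 20 in the B gate, 8 of 20 in the epithelial gate and 4 of 20 in the LYZ+CST3+AIF1 gate, and higher in none. Summed, they stood at 108 and 13.7 per 10000 in the stromal gate, 85.3 and 27.7 in the T gate, 73.4 and 41.9 in the B gate, and 64.5 and 58.1 in the free RNA. Over all genes of the 5 gates, in the order of the counts above, 6.06%, 8.29%, 9.52%, 18.8% and 16.3% were at least 2-fold lower. The 4 of 20 in the LYZ+CST3+AIF1 gate thus lie near its share. None of the 17 immediate early genes compared everywhere was lower by 2-fold in all 5 gates. Chaperones did not share the pattern, with medians from 0.03 in the stromal gate to 0.63 in the B gate.

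**Figure D4:**
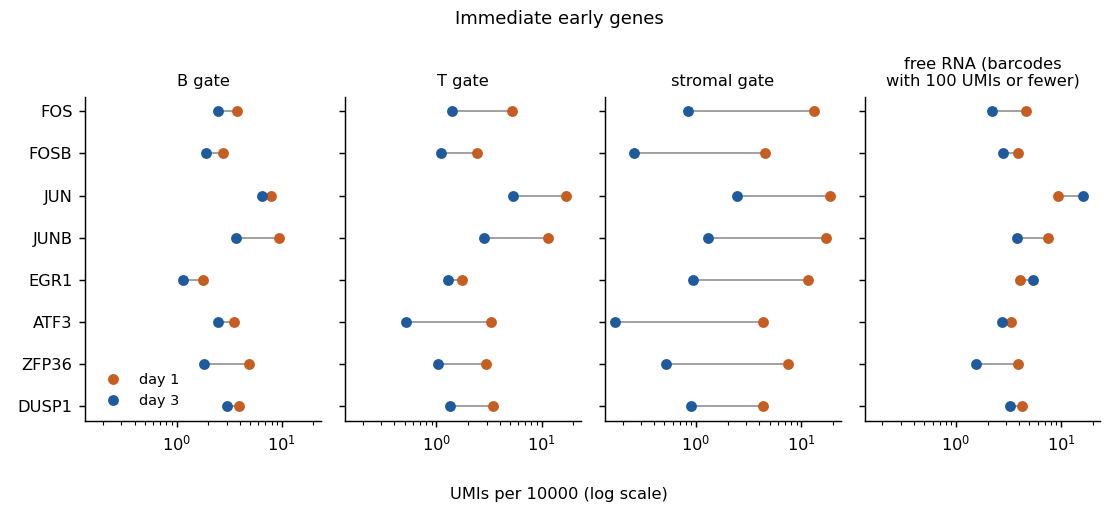
Levels of 8 immediate early genes on day 1 and day 3 (UMIs per 10000, log scale, x axis) in the B, T and stromal gates and in free RNA. Each gene was lower on day 3 in the 3 gates, most in the stromal gate, where FOS stood at 13.3 and 0.837, while JUN and EGR1 were higher in the free RNA of day 3.

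**Figure D5:**
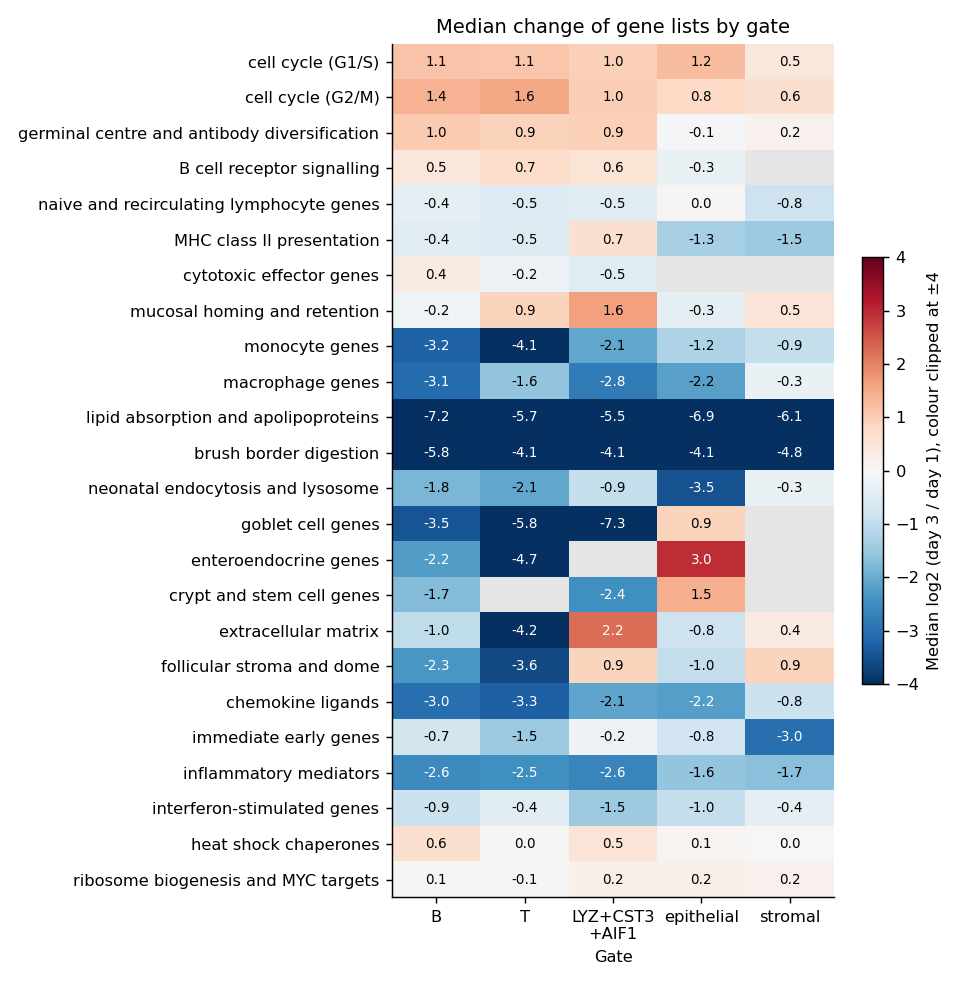
Median log2 ratio (day 3 over day 1) of the compared genes of each list (rows) by gate (columns), with the value written in each cell, colours clipped at 4 in either direction and grey where fewer than 3 genes were compared. Cell cycle lists were higher in each gate, lipid absorption and brush border lists lower in each, and enteroendocrine genes higher in the epithelial gate (2.96).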

How the data were processed

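Ileal mucosa of male piglets was profiled by droplet single-cell RNA sequencing, with 1 library per age. The authors made the deposited counts, raw UMI counts of 20648 genes per barcode with no cells removed, with Cell Ranger 3.1.0 and STAR on susScr11, per the submitters' processing notes. The labels and the study's methods name different kit versions.

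Groups came from the age label. Barcodes, gates, levels and the 2-fold call were as stated above, from gene symbols in the files. Doublets were kept and no caller was run, so barcodes may hold more than 1 cell. Thinning drew 1000 UMIs from each barcode with a fixed seed. Intervals of sums and of ratios were exact (Poisson and conditional binomial), those of shares Clopper-Pearson. A gene at 0 was set to 3 UMIs. Genes were named by rule as those with the largest ratio among genes with at least 1 UMI per 10000 and, in gates, 2 times the free RNA level in the higher library, leaving out gate genes and unnamed loci, up to 15 per direction for all barcodes and the B gate and 10 elsewhere. All other genes come from 28 function lists and 13 marker lists, or were named after their values were seen. The members and lists were chosen with earlier results of these data known. Some genes that met these rules are not reported here. No difference was tested, since each age has 1 library. Python 3.11.15, numpy 2.4.6, pandas 2.3.3, scipy 1.17.1, R 4.3.3, Seurat 5.3.0 (cell cycle lists) and edgeR 4.0.16 (TMM factors only) were used. The scripts were tested on simulated data. Positions were RefSeq's on Sscrofa11.1. Alternatives changed the barcode minimums, the mitochondrial maximum, the gates, the scaling, the UMI floor and the fold.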

Additional observations from a re-analysis of the deposited data

How the results depend on the processing

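No paired analysis was possible because each age has 1 library and the labels give no replicate numbers to pair. Of the counts, shares and cell cycle ratios recomputed, 124 stayed within 1.5 times, the counting error or 0.25 on the log2 scale of the value reported and 67 did not. None of the shares and ratios reversed, while a count of genes has no sign to reverse. Which direction held more genes did change in some alternatives, as given above for the B and T gates. Few barcodes limit the epithelial, stromal, LYZ+CST3+AIF1 and T gates of day 3, with 93, 176, 205 and 349.

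With each barcode thinned to 1000 UMIs and the gates applied again, 30 epithelial and 74 LYZ+CST3+AIF1 barcodes of day 3 were left. Genes lower over all barcodes then numbered 1407, and genes higher and lower numbered 491 and 96 in the B gate, 25 and 61 in the T gate, 12 and 102 in the LYZ+CST3+AIF1 gate, 16 and 80 in the epithelial gate and 19 and 19 in the stromal gate. Shares, day 3 minus day 1 in percentage points, differed by 20.8 in the B gate, -3.00 in the T gate, -2.04 in the LYZ+CST3+AIF1 gate, -2.15 in the epithelial gate and -0.24 in the stromal gate. The cell cycle log2 ratio was 1.01 over all barcodes and 0.70 in the B gate. It was 1.02 over all barcodes with equal weight per barcode. Fewer UMIs above the floor and smaller gates follow from thinning itself.

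With TMM scaling 534 genes were higher in the B gate and 347 in the T gate. At a floor of 500 UMIs genes higher and lower numbered 540 and 323 (B), 122 and 208 (T), 192 and 538 (LYZ+CST3+AIF1), 250 and 1173 (epithelial) and 29 and 65 (stromal). At a floor of 20 UMIs 2042 genes were lower in the B gate, 1488 higher and 1509 lower in the T gate, 1631 higher in the LYZ+CST3+AIF1 gate, 2443 higher in the epithelial gate and 728 higher and 848 lower in the stromal gate. At 3-fold the higher genes numbered 470 over all barcodes, 228 (B), 127 (T), 228 (LYZ+CST3+AIF1), 380 (epithelial) and 40 (stromal), and the lower genes 1049 (epithelial) and 142 (stromal).

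With barcodes of at least 500 UMIs and 200 genes the shares differed by 34.9 (B), -9.40 (T), -5.55 (LYZ+CST3+AIF1) and -6.95 (epithelial) points, and with at least 2000 UMIs and 1000 genes by 43.6, -14.5, -8.50 and -11.6, and by -2.74 in the stromal gate. With a mitochondrial share below 25% they differed by -12.6 (T) and -7.14 (LYZ+CST3+AIF1). At 3 UMIs the B gate differed by 38.8 and the T gate by -8.55 points. Without barcodes carrying the 4 division genes the B gate differed by 18.3 points and its cell cycle ratio was 0.33. At 20 UMIs the LYZ+CST3+AIF1 gate gave 547 higher and 848 lower genes and -4.35 points. Without B, T, epithelial and stromal markers, added after values were seen, it gave 486, 476 and -4.06 points.

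Of the values recomputed for the genes and lists named, 1658 stayed within those limits, 680 moved beyond them, which for genes under 2-fold may include a change of sign, and 14 reversed. Thinning and equal weight per barcode moved 181 each and TMM scaling 92. In the LYZ+CST3+AIF1 gate the reversed values were CXCL13 (log2 -4.45 thinned and -0.67 without other markers), MFGE8 (-0.33) and the MHC class II median (-0.0394), both without other markers. In the B gate without division genes they were HBB (0.23) and the naive and recirculating median (0.0512). In the epithelial gate they were GCG (-5.44 with at least 2000 UMIs, -5.36 with the mitochondrial maximum and -1.83 thinned) and, when thinned, MUC2 (-3.48), SST (-2.64), ENPEP (0.0369) and the goblet cell median (-2.70). In the stromal gate it was MYH11 (-0.59 thinned). The cause was not tested, beyond the few barcodes given above.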
